A study of Mus musculus with 4 samples.

Results

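The 37 genes described here drive or restrain the cell cycle. They are 3 D-type cyclins, 2 kinases that pair with them, 4 CDK inhibitors, 6 genes of the retinoblastoma and E2F families, 3 S phase cyclins with Cdk2, 5 replication genes, 11 mitotic genes and 2 Myc genes, and they were chosen by name. Their chromatin was followed through ATAC-seq peaks lying within 20 kb of each GRCm38 gene body, where ATAC-seq marks open DNA by the insertion of adapters with the Tn5 transposase. Peaks that overlapped between libraries were merged, which gave 152 regions at the 37 genes among 53140 regions genome-wide. No region was shared by 2 of the genes. For 96 of the 152 regions the member was overlapped or was the nearest protein-coding gene, and for 56 another gene lay nearer.

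The hearts were whole hearts of newborn (P0, postnatal day 0) C57BL/6 mice, 1 heart per library. In the edKO hearts (n = 2) the retinoid X receptors RXRα and RXRβ were both deleted in cardiomyocytes only (RXRab-/- in the labels). In the WT hearts (n = 2) neither of them was deleted. The Cre driver is not given in the sources used here, no label gives their sex, and cells other than cardiomyocytes in the edKO hearts should keep both receptors. A peak list does not measure the receptor transcripts. Of 7 regions over Rxra, 5, 5, 6 and 7 were called in edKO 1, edKO 2, WT 1 and WT 2, and of 2 regions over Rxrb, 1, 1, 2 and 2 were called. The lists held 27473 and 27142 peaks in the edKO libraries and 35279 and 38809 in the WT libraries. The authors' fold and p-value of a peak can be solved for its summit pileup, the number of tags stacked at the summit. The median pileup was 19 and 18 in the edKO libraries and 23 in both WT libraries.

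Cells enter the cycle when D-type cyclins, made in response to growth signals, activate Cdk4 and Cdk6. These kinases phosphorylate the retinoblastoma proteins, which frees E2F factors to switch on replication genes, and later the mitotic genes follow through Myb and Foxm1 complexes. CDK inhibitors block the kinases. Heart muscle cells of the mouse divide before birth and leave the cycle in the first days of life, so a newborn heart holds cells that still divide beside cells that are about to stop.

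Promoters of the genes carried the short motifs known for this programme. Promoter sequences, from 250 bases before to 50 bases after the annotated start, were taken from RefSeq (GRCm38.p6) and matched 28 of the 37 genes, with 33 starts. The 9 genes with no entry were Ccnd1, Ccnd2, Ccne2, Ccna2, Cdkn1c, Rb1, Aurkb, Foxm1 and Myc. Motifs were searched on both strands. The cell cycle homology region (CHR, TTTGAA or TTCGAA), bound by the DREAM and Myb complexes at mitotic genes, was found at 8 of 9 mitotic genes, at 0 of 4 D cyclin and CDK inhibitor genes, in 39.4% of the 33 promoters and in 17.2% of all 21045 promoters. The CCAAT box, bound by NF-Y, was found at 9 of 9 mitotic and 5 of 5 replication genes. It was also found at 3 of 4 D cyclin and CDK inhibitor genes, and in 63.6% of the 33 promoters against 38.5% of all. An E2F element (TTCCCGC or TTGGCGC) was found at 11 of 28 genes, in 33.3% of the 33 promoters against 8.78% of all. The hexamer core of nuclear receptor sites, AGGTCA, was found at 6 genes (Pcna, Cdkn2c, Mcm2, Cdk4, Ccnb1 and Ccnd3), in 18.2% of the 33 promoters against 14.6% of all. In the promoters of the 28 genes, 1 pair of matches of different motifs overlapped. These are matches of letters in a window, not measured binding.

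A set of 6 promoters is printed 5′ to 3′ on the gene's strand, with every match of these motifs in capitals. Cdk1 and Ccnb2 are shown for the mitotic CCAAT and CHR pattern, Mcm6 for a replication promoter with E2F elements, Cdkn2c and the downstream start of Ccnd3 for inhibitors and D cyclins with a start called in every heart, and the upstream start of Ccnd3 for a start called in 1 library.
Cdk1, chr10:69352863-69353162, minus strand: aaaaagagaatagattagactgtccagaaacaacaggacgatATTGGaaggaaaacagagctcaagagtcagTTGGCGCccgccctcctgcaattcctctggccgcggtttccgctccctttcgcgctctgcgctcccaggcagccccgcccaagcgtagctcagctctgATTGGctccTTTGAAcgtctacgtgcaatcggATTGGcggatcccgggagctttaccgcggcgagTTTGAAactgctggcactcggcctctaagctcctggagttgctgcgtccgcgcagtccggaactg
Ccnb2, chr9:70421505-70421804, minus strand: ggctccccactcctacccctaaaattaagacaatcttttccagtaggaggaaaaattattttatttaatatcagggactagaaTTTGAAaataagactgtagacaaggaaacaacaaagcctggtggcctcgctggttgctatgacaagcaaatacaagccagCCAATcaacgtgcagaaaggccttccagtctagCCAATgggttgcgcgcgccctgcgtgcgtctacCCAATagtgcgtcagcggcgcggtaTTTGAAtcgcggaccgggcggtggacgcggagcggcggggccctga
Mcm6, chr1:128359656-128359955, minus strand: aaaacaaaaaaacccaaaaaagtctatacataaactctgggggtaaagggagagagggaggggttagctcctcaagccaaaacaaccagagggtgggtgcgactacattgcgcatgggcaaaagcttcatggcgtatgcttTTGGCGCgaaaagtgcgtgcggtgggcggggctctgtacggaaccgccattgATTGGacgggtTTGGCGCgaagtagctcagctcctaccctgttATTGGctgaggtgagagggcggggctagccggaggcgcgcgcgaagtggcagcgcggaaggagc
Cdkn2c, chr4:109666707-109667006, minus strand: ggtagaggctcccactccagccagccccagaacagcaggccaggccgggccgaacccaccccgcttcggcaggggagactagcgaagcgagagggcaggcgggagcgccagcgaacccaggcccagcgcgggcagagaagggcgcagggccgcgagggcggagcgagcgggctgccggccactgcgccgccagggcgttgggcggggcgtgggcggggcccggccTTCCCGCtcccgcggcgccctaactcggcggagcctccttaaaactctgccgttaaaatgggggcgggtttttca
Ccnd3 downstream start, chr17:47593217-47593516, plus strand: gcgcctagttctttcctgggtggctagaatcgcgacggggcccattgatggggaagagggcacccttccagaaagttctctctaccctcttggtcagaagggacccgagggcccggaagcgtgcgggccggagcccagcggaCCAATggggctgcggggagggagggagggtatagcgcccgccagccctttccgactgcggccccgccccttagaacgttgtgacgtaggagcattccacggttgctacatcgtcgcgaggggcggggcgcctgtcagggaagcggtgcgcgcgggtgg
Ccnd3 upstream start, chr17:47504801-47505100, plus strand: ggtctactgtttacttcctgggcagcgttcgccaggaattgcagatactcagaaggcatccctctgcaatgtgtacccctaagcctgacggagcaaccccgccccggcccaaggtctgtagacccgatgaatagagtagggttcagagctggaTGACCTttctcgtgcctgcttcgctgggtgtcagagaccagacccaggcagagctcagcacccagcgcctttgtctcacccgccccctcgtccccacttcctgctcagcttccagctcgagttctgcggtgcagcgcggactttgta
Positions count from the annotated start as 0 and give the first base of a match as printed. In Ccnb2 the 3 CCAAT boxes begin at -87, -54 and -21, followed by a CHR at 4. In Cdk1 they begin at -208, -80 and -48, with CHR matches at -71 and -15 and an E2F element at -178. Mcm6 holds E2F elements at -109 and -46 and CCAAT boxes at -57 and -14, and no CHR. The single E2F element of Cdkn2c, which encodes the inhibitor p18, lies at -25. The 2 Ccnd3 promoters hold no E2F element and no CHR, and the AGGTCA match (on the opposite strand) at -97 of the upstream one is the only capital run there. Of the 33 promoters, 28 overlapped a region called in all 4 libraries and 2 overlapped none, the upstream start of Cdkn1a and the second start of Cdkn2c. Their median GC content was 58.0% (44.0% to 78.7%), against 56.7% for all promoters.

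Nearly all cell cycle genes had a called start in both genotypes, while peaks near them were fewer in edKO hearts, as they were across the genome. A peak lay within 1 kb of a start in 36 and 37 of the 37 genes in edKO 1 and edKO 2 and in 37 of 37 in both WT libraries. Thus 36 genes (97.3%) had a called start in all 4 hearts, against 48.7% of all 21631 protein-coding genes. The exception was Aurkb, the kinase of the chromosomal passenger complex, which lacked a start peak in edKO 1. The difference of -1.35 percentage points (edKO minus WT) gave p = 1.0 in a two-sided exact permutation test over the 4 libraries, which with 2 libraries against 2 cannot go below 0.333. The start result depended on the threshold: with peaks of −log10 p of at least 10 the difference was -16.22 points (exact permutation p = 0.333), and with peaks covering at least 50% of the region it was -4.05 points. Of a further 60 cell cycle genes on a separate list, 55 (91.7%) had a called start in all 4 libraries.

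Over all 152 regions, 96 and 100 were called in edKO 1 and edKO 2, against 120 and 122 in WT 1 and WT 2. This is 64.5 ± 1.86% of the regions in edKO hearts and 79.6 ± 0.930% in WT hearts (SD, n = 2 each), a difference of -15.1 points (exact permutation p = 0.333, the smallest the design allows). Both edKO libraries lay below both WT libraries. With all lists cut to the same length the difference was -4.04 points and the groups were no longer apart (exact permutation p = 0.667). Over all 53140 regions the same values were 49.6 ± 0.307% in edKO and 68.2 ± 4.65% in WT hearts, -18.6 points, so calls fell short in the whole genome as well. Whether the 2 shortfalls differ was not tested. A site with no call failed to reach the authors' threshold in a library and may still have been open. In whole hearts, fewer cells of a type and less accessibility per cell cannot be told apart.

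**Figure D1:**
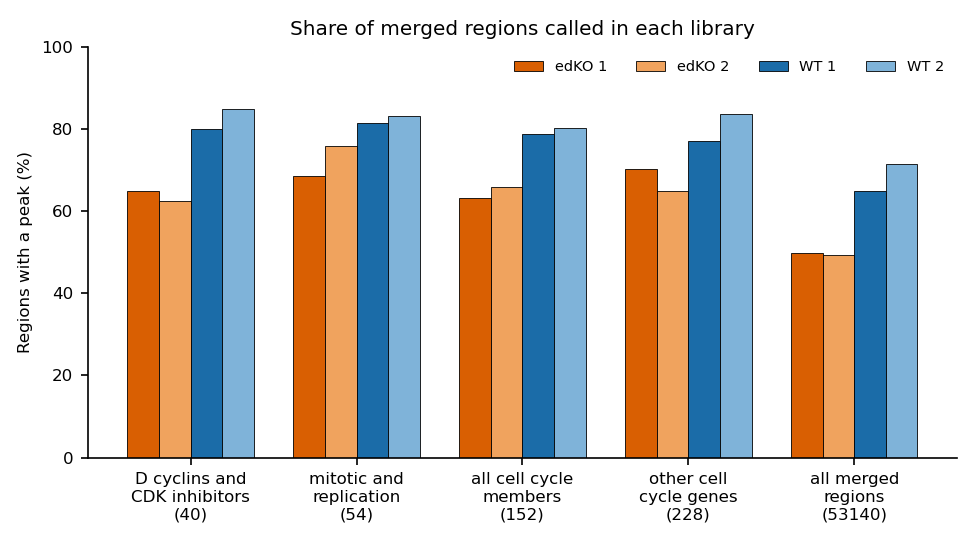
Percentage of merged regions with a peak in each library (y axis), for the D cyclin and CDK inhibitor genes, the mitotic and replication genes, all 37 members, the 60 other cell cycle genes and all merged regions; each bar is 1 library. In every group both edKO bars stand below both WT bars, and the 152 cell cycle regions are called more often than all regions in each library (63.2% and 65.8% in edKO, 78.9% and 80.3% in WT hearts).

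The cell cycle regions were more often called in every heart than regions in general, and more of them lay at gene starts. Of the 152, 76 (50.0%) were called in all 4 libraries, against 31.2% of all merged regions, and 37 (24.3%) were called in 1 library alone, against 39.3%. Of these 37, 2 were in edKO 1, 12 in edKO 2, 10 in WT 1 and 13 in WT 2, and genome-wide the counts were 2424, 6093, 4921 and 7466. At 10 genes, Cdkn1a, Ccne2, Ccna2, Cdk2, Mcm3, Mcm6, Ccnb1, Ccnb2, Mki67 and Foxm1, every region was called in every heart. Each of the 10 had only 1 to 3 regions, where the 37 genes had a median of 3 and up to 11. The share of such genes among all genes was not counted. Of the cell cycle regions, 83 (54.6%) lay within 1 kb of the start of some gene, against 27.2% of all regions, and calls are steadier there genome-wide. At gene starts 74.7% of cell cycle regions and 68.2% of all regions were called in every heart. Away from gene starts the shares were 20.3% and 17.3%. WT-only regions, those with a peak in WT 1 and WT 2 but in no edKO heart, numbered 12 of the 104 called in both WT libraries (11.5%, 95% exact Clopper-Pearson interval 6.11% to 19.3%), against a genome-wide 19.4%. A further 16 had a peak in both WT hearts and 1 edKO heart, 9 in edKO 1 and 7 in edKO 2. That is 16 of 104, where the genome-wide share was 21.6%. Among 79 regions called in both edKO libraries 0 were edKO-only, against 1.35% genome-wide. By the rule of 3 (3 divided by the 79 regions, not the exact interval) a count of 0 allows a share of up to 3.80%. The intervals cover counting error only, and regions are not replicates of a genotype.

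**Figure D2:**
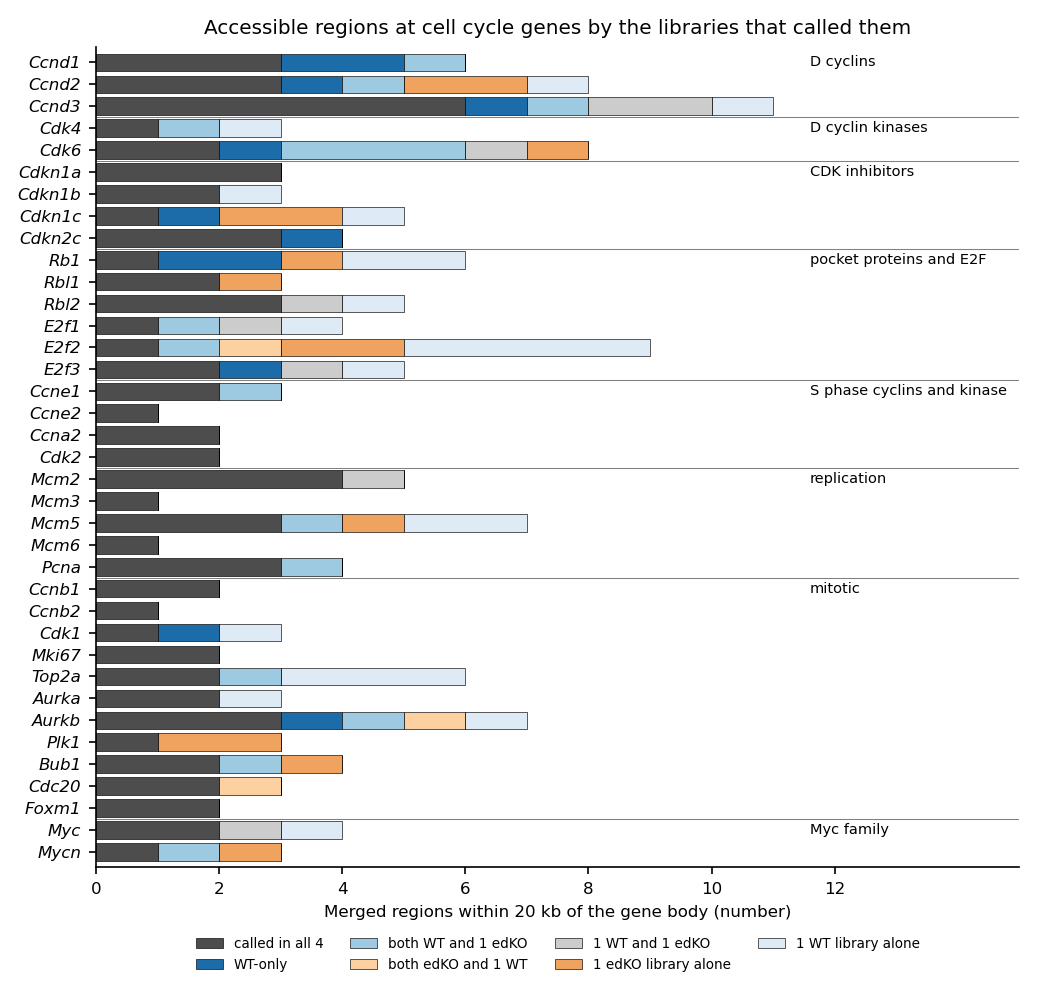
Number of merged regions within 20 kb of each gene body (x axis) for the 37 genes, grouped by role, with colours for the libraries that called a region. Every gene has a dark segment, a region called in all 4 libraries, and the 12 WT-only regions (dark blue) fall at 10 genes, among them all 3 D cyclins.

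The D cyclins had the most peaks per length of DNA and 4 of the 12 WT-only regions. Their windows held 25 regions, or 9.94 per 100 kb, against 6.08 per 100 kb over all 37 genes. Of these, 17 and 14 were called in edKO 1 and edKO 2, against 20 and 22 in WT 1 and WT 2. In all 4 libraries 12 were called (48.0%, against 31.2% of all regions). WT-only regions were 4 of 19 called in both WT libraries (21.1%, 6.05% to 45.6%), close to the genome-wide share above.

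Ccnd1 (chr7:144929931-144939831), which encodes cyclin D1, had 6 regions. The authors' −log10 p at its start region (chr7:144939621-144940048) was 6.90 and 7.74 in edKO hearts and 13.6 and 12.6 in WT hearts, with summit pileups of 21 and 23 in edKO against 37 and 36 in WT hearts. Both edKO values lay below both WT values, yet this was among the weakest starts of the set. The 2 WT-only regions flank the gene. The one at chr7:144927626-144927962, 1969 bp from the gene at its lower-coordinate side and nearer to LTO1, reached −log10 p 4.65 in WT 1 and 7.79 in WT 2. The other, at chr7:144943370-144943668 and 3539 bp past the opposite end, had 7.42 in WT 1 and 10 in WT 2. Neither had a peak in either edKO library, and 1 region in the gene body (chr7:144937564-144937805) was called in edKO 1 at 11.5, not in edKO 2, and in WT 1 and WT 2 at 10.1 and 6.53.

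Ccnd2 (chr6:127125162-127152188), which encodes cyclin D2, had 8 regions, 3 of them called in every heart. At a region just inside its start end (chr6:127150917-127151226) −log10 p was 10.8 and 6.83 in edKO hearts and 21.8 and 21.5 in WT hearts. At the neighbouring region across the gene end (chr6:127152183-127152804) it was 19.2 and 11.7 in edKO hearts and 13.5 and 15.7 in WT hearts. The groups were apart at the first and overlapped at the second, less than 1 kb away. Its WT-only region (chr6:127122482-127122809) lay 2353 bp beyond the opposite end of the gene, at −log10 p 8.06 in WT 1 and 5.78 in WT 2, where the summits held 13 and 11 tags.

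Ccnd3, which encodes cyclin D3, had 11 regions, the most of any member, along a gene body with 2 annotated starts. The downstream start (chr17:47593203-47593850), whose promoter is printed above, was strong in every heart, with −log10 p of 37.8 and 35.9 in edKO hearts and 61.1 and 75.0 in WT hearts. The upstream start (chr17:47505019-47505218) had a peak in WT 1 alone, at 8.79. A region further into the gene (chr17:47507963-47508333) had −log10 p of 24.8 and 8.84 in edKO hearts and 38.7 and 17.2 in WT hearts, so that here the libraries of a group differed as much as the groups. The WT-only region of Ccnd3 (chr17:47527548-47527837) lay in the gene body and was weak, at 6.84 in WT 1 and 7.44 in WT 2.

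**Figure D3:**
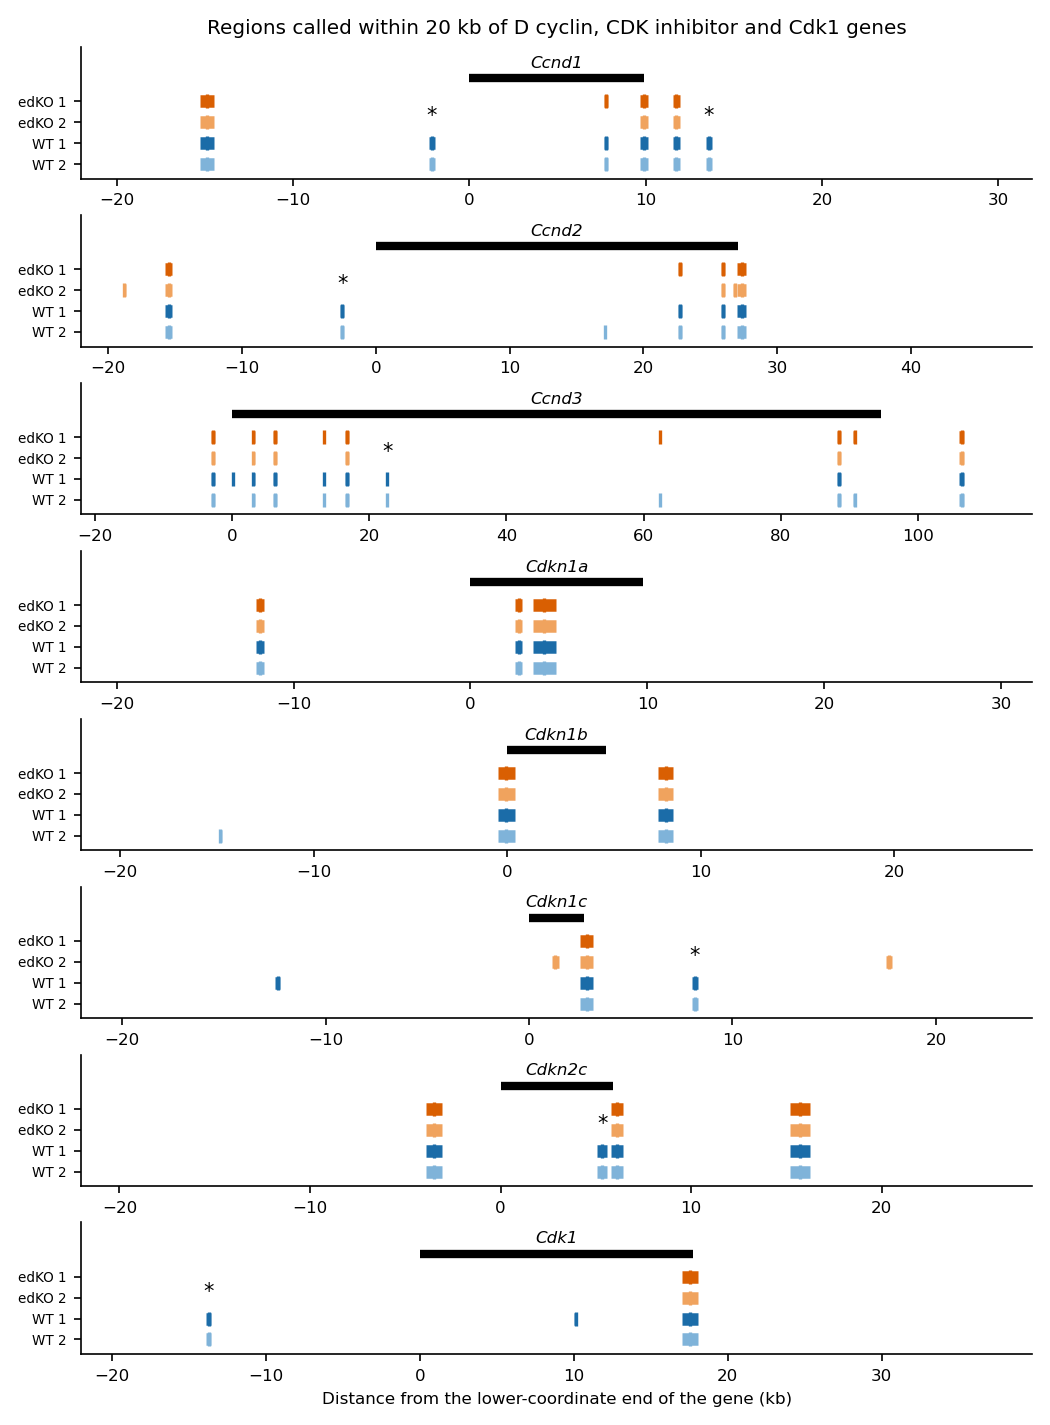
Merged regions called in each library around the D cyclins, the 4 CDK inhibitors and Cdk1, by distance in kb from the lower-coordinate end of the gene (x axis); black bars are gene bodies, coloured marks show a call over the merged region (at least as wide as the plotting symbol), and asterisks mark WT-only regions. The WT-only regions at Ccnd1, Ccnd2, Cdkn1c and Cdk1 stand outside the gene body, and each gene has at least 1 start region marked in all 4 libraries.

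Cdk4 and Cdk6, the kinases activated by D cyclins, differed widely in the strength of their starts. The Cdk4 start (chr10:127063184-127063888) was among the strongest of all members, with −log10 p of 125 and 102 in edKO hearts and 162 and 153 in WT hearts. The strongest Cdk6 start region (chr5:3343670-3344698) had 9.42 and 9.91 in edKO hearts and 23.1 and 16.4 in WT hearts. The edKO values lay below the WT values at both genes. Cdk6 held 8 regions in a long gene, of which 2 were called in all 4 libraries, 3 in both WT libraries and 1 edKO library, and 1 was WT-only (chr5:3466526-3466877, in the gene body, 7.69 in WT 1 and 6.33 in WT 2).

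The CDK inhibitors had 15 regions, 9 and 11 of them called in edKO 1 and edKO 2 and 12 in each WT library. Of these, 9 were called in every heart, and 2 of 11 called in both WT libraries were WT-only. At Cdkn1a, which encodes p21, the p53-induced inhibitor, all 3 regions were called in all 4 libraries. The stronger of its start regions on average (chr17:29094527-29095788) had −log10 p of 21.5 and 15.3 in edKO hearts and 43.9 and 41.2 in WT hearts, and a nearby start region (chr17:29093495-29093907) had 27.8 and 15.7 in edKO hearts and 22.6 and 28.0 in WT hearts. As at Ccnd2, groups that were apart at 1 region overlapped at the next.

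At Cdkn1b, which encodes p27, the start (chr6:134919918-134920797) had −log10 p of 56.9 and 32.6 in edKO hearts and 79.4 and 102 in WT hearts, the strongest start of the inhibitors. A second region 2679 bp past the gene end (chr6:134928204-134928976) had 38.1 and 13.8 in edKO hearts and 30.3 and 47.9 in WT hearts, where the groups overlapped. At Cdkn1c, the imprinted gene of p57, the start (chr7:143460856-143461492) had 45.01 and 28.2 in edKO hearts and 56.7 and 65.5 in WT hearts. Its WT-only region (chr7:143466337-143466652) lay 5278 bp outside the gene, at 8.01 in WT 1 and 6.09 in WT 2, and 2 other regions were called in edKO 2 alone.

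Cdkn2c carried the one WT-only region that lay at a member's own start. Its main start (chr4:109666657-109667286) was called in every heart, with −log10 p of 28.5 and 29.8 in edKO hearts and 39.2 and 44.4 in WT hearts. The WT-only region (chr4:109665957-109666479) lies between the 2 annotated starts, at 5.05 in WT 1 and 7.23 in WT 2, with pileups of 15 and 19. It was the weakest of the 12 by its rank in the WT lists.

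Among the retinoblastoma and E2F genes, 32 regions gave 10 called in every heart and 3 WT-only of 15 called in both WT libraries. Rb1, the founding pocket protein gene, held 2 of these. The region at chr14:73181182-73181501, 11357 bp from the gene and nearer to Rcbtb2, reached −log10 p 8.19 in WT 1 and 9.02 in WT 2. The one at chr14:73237779-73238109 lies in the body of Rb1 at the start of Lpar6, a receptor gene nested there, at 5.73 and 8.09. The Rb1 start itself (chr14:73325333-73326270) had 18.01 and 19.5 in edKO hearts and 25.8 and 38.4 in WT hearts.

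E2f3, an activator E2F, had the strongest start of all members (chr13:29985906-29986512), with −log10 p of 129 and 108 in edKO hearts and 177 and 202 in WT hearts, and a weak WT-only region in its body (chr13:29967066-29967341, at 6.29 in WT 1 and 7.53 in WT 2). At its other start region (chr13:29984098-29984794) the groups overlapped, with 13.75 and 11.17 in edKO hearts and 12.28 and 26.43 in WT hearts. The strongest region of the group was not at a member's start but at that of Aktip, 9858 bp beyond Rbl2, the gene of the pocket protein p130 (chr8:91133702-91134528). It had 156 and 94.0 in edKO hearts and 172 and 224 in WT hearts. At the strongest start regions of Rbl1, which encodes p107, and Rbl2 the groups overlapped. Rbl1 had 9.14 and 11.3 in edKO hearts and 9.93 and 11.0 in WT hearts, and Rbl2 had 33.7 and 12.5 in edKO hearts and 25.9 and 41.0 in WT hearts. At a second Rbl2 start region (chr8:91070525-91070857) the groups were apart, with 9.42 and 8.55 in edKO hearts and 18.36 and 15.20 in WT hearts.

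E2f2, another activator E2F, was the gene with the least regular calls. It had 9 regions, of which 6 were called in 1 library alone and 1 in all 4. A region at its second annotated start (chr4:136180359-136180858) had −log10 p of 7.31 and 6.24 in edKO hearts, no peak in WT 1 and 12.7 in WT 2. WT 1 had a peak at each start in neighbouring regions, at 8.91 at the first (chr4:136172089-136172305) and at 9.23 at the second (chr4:136180033-136180286). The edKO 2 library had a further peak at the first start (chr4:136172482-136172928), at 4.6. Thus every library had a peak at a start of E2f2, but no single start region was called in all 4.

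The genes of S phase entry had few regions, and nearly all were called in every heart. At Ccne1, Ccne2, Ccna2 and Cdk2, whose products drive entry into and passage through S phase, 7 of 8 regions were called in every heart and 0 of 8 were WT-only (95% exact interval up to 36.9%, which holds the genome-wide share). Of these 8 regions, 6 lay at a gene start, and 68.2% of all regions at gene starts were called in every heart. The strongest was a region 12587 bp from Ccne1 (chr7:38084732-38085397), which encodes cyclin E1, with −log10 p of 163 and 151 in edKO hearts and 158 and 182 in WT hearts. The groups overlapped there, while at the Ccne1 start (chr7:38107041-38108032) both edKO values, 135 and 98.1, lay below both WT values, 165 and 180. The Ccna2 start had 85.5 and 96.5 in edKO hearts and 119 and 142 in WT hearts.

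Replication genes also had no WT-only region, 0 of 14 called in both WT libraries (95% exact interval up to 23.2%, which holds the genome-wide 19.4%). Of their 18 regions 12 were called in all 4 libraries (66.7%, against 31.2% of all regions). Pcna, the sliding clamp of DNA polymerase, had the strongest start (chr2:132252600-132253542), with −log10 p of 83.8 and 75.9 in edKO hearts and 118 and 134 in WT hearts. A region 9620 bp further on (chr2:132262800-132263752) lay at the start of another gene, with Cds2 nearest. Its −log10 p was above that of the Pcna start in edKO 1 and WT 1 and below it in edKO 2 and WT 2, with 86.2 and 54.9 in edKO hearts and 120 and 104 in WT hearts. The 4 Mcm genes, subunits of the replicative helicase, had start values from 20.6 (Mcm2, edKO 2) to 85.9 (Mcm3, WT 1). Mcm3 and Mcm6 each had their start as their single region, and Mcm6, whose promoter is printed above, had 35.3 and 33.0 in edKO hearts and 52.8 and 57.9 in WT hearts.

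Mitotic genes had 36 regions, 24 and 26 called in edKO 1 and edKO 2, against 28 and 30 in WT 1 and WT 2. In all, 20 were called in every heart and 2 of 25 called in both WT libraries were WT-only. Cdk1, the kinase that drives entry into mitosis, held the strongest WT-only region of the 12 (chr10:69321262-69321582), 13564 bp from the gene, at −log10 p 18 in WT 1 and 12.2 in WT 2, where the summits held 23 and 18 tags. Its start (chr10:69352184-69353241), at the promoter printed above, had 38.9 and 27.8 in edKO hearts and 51.8 and 44.9 in WT hearts.

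Aurkb had a WT-only region 9424 bp away and nearer to Ctc1 (chr11:69036000-69036200, at −log10 p 7.13 in WT 1 and 10.3 in WT 2). The Aurkb start region (chr11:69045456-69045948) was not called in edKO 1, had −log10 p of 5.71 in edKO 2, and had 10.1 and 16.1 in the WT libraries. Ccnb1, which encodes cyclin B1, had the strongest mitotic start, at 62.0 and 34.2 in edKO hearts and 76.8 and 95.8 in WT hearts. The strongest region in the mitotic windows (chr2:172345208-172345882) lay at the start of Fam210b, 10308 bp from Aurka, the gene of the spindle pole kinase, with 129 and 118 in edKO hearts and 152 and 190 in WT hearts. The start of Plk1, a kinase needed for spindle assembly, was the weakest mitotic one among those called in all 4 libraries, at 6.54 and 5.77 in edKO hearts and 11.6 and 14.2 in WT hearts. At Top2a, which encodes the DNA topoisomerase of dividing cells, the start had 21.0 and 9.79 in edKO hearts and 47.4 and 40.2 in WT hearts. Foxm1, the activator of mitotic genes, and Mki67, the proliferation marker Ki-67, each had 2 regions called in every heart, and Bub1 and Cdc20, of the spindle checkpoint, had 4 and 3 regions of which 2 each were. Ccnb2, with 1 region and the printed promoter, had 21.9 and 14.4 in edKO hearts and 30.9 and 27.0 in WT hearts.

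The Myc genes, which encode growth-promoting transcription factors, had 7 regions and 0 of 4 WT-only. The Myc start (chr15:61985034-61985721) had −log10 p of 20.1 and 7.26 in edKO hearts and 18.9 and 14.5 in WT hearts, so the groups overlapped. Mycn (chr12:12941566-12942018), which the embryonic heart uses for growth, had 6.79 and 5.70 in edKO hearts and 15.1 and 10.01 in WT hearts, the weakest of the 35 starts by mean −log10 p, with no overlap. A second Mycn start region (chr12:12942364-12942766) had 10.82 in edKO 1, no peak in edKO 2, and 10.34 and 9.44 in WT hearts.

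**Figure D4:**
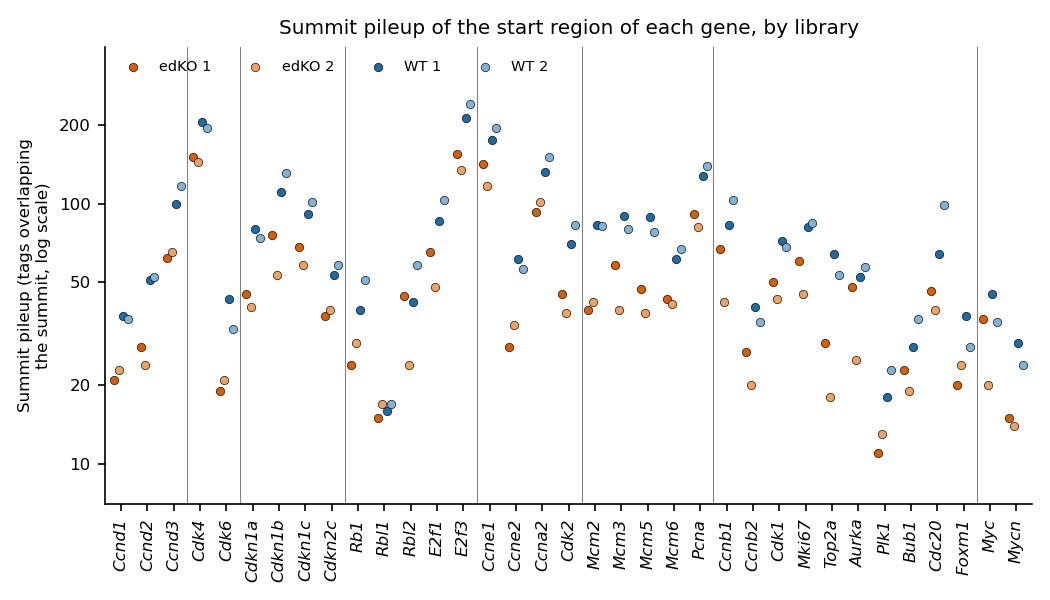
Summit pileup of the strongest start region called in all 4 libraries (y axis, log scale, tags overlapping the summit) for the 35 genes that have one, grouped by role; each point is 1 library. Starts range from E2f3 and Cdk4 at the top to Plk1 and Rbl1 at the bottom, and orange edKO points lie below blue WT points at 32 of the 35 genes.

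Start by start, values were lower in edKO hearts at nearly all genes, as they were at starts genome-wide. A start region called in all 4 libraries existed for 35 genes, and the strongest such region of each gene was taken. Its pileup was lower in both edKO than in both WT libraries at 32 of 35 genes, all but Rbl1, Rbl2 and Myc, and its −log10 p at 31 of 35, with Aurka as the further exception. Counted over regions, the pileup was lower in both edKO libraries at 35 of the 39 member start regions called in all 4 libraries (89.7%), against 87.7% of all such regions at gene starts. The −log10 p was lower at 32 of 39 (82.1%), against 78.1%. Over all 76 member regions called in every heart, −log10 p was lower in both edKO libraries at 55 (72.4%), against 74.7% genome-wide. It was higher in both edKO libraries at 0 of the 76, and genome-wide at only 126 of 16568. Fold enrichment, which divides out the local background, was lower at 35 of 76 (46.1%), against 45.4% genome-wide. These are the authors' values within each list and move with the depth and background of a library.

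D cyclins and CDK inhibitors were set beside mitotic and replication genes, and 2 hearts a group could not establish a difference between the gene groups. The 7 regulators had 40 regions, called at 65.0% and 62.5% in edKO 1 and edKO 2 and at 80.0% and 85.0% in WT 1 and WT 2. The 16 mitotic and replication genes had 54 regions, called at 68.5% and 75.9% in edKO hearts and at 81.5% and 83.3% in WT hearts. Regulators minus mitotic and replication genes was -3.5 and -13.4 points in edKO 1 and edKO 2 and -1.5 and 1.7 points in WT 1 and WT 2. The means were -8.5 ± 7.0 in edKO hearts and 0.1 ± 2.2 in WT hearts (SD, n = 2 each), a difference of -8.6 points (exact permutation p = 0.333, the smallest possible). Its direction turned with the threshold: it was 4.57 points with all lists cut to the same length, and 5.83 points with a −log10 p of at least 10.

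Counted as WT-only regions, the regulators had 6 of 30 called in both WT libraries (20%, 95% exact interval 7.71% to 38.6%) and the mitotic and replication genes 2 of 39 (5.13%, 0.627% to 17.3%). The intervals overlap. The genome-wide 19.4% lies within that of the regulators and above that of the mitotic and replication genes. Regulators had more regions per length, 9.19 per 100 kb against 5.99, and 23 of their 40 regions lay away from any gene start, against 23 of 54. Away from gene starts 5 of 15 regulator regions (33.3%) and 2 of 9 mitotic and replication regions (22.2%) were WT-only, and at gene starts 1 of 15 and 0 of 30. With all lists cut to 27142 peaks, 1 of 22 (4.55%) and 1 of 36 (2.78%) were WT-only, and at a −log10 p of at least 10 the order turned, with 1 of 19 (5.26%) and 3 of 31 (9.68%).

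Position and strength went with the WT-only call. Away from gene starts 10 of 33 cell cycle regions called in both WT libraries were WT-only (30.3%), against 29.3% of all such regions, and at gene starts 2 of 71 (2.82%), against 4.89%. Strength was the mean percentile of a region's −log10 p within the 2 WT lists. Below the percentile of 25, 8 of 10 cell cycle regions were WT-only (80.0%), where 57.8% of all regions were. From 25 to 50, from 50 to 75 and above 75 it was 3 of 20, 1 of 26 and 0 of 48, where the shares of all regions were 37.7%, 8.86% and 0.390%. The 12 regions had a median strength of 20.4, against 72.4 for all cell cycle regions called in both WT libraries, with pileups of 11 to 32 and widths of 201 to 523 bp. With lists of equal length, 3 of them stayed WT-only, those at chr7:144943370-144943668 (Ccnd1), chr14:73181182-73181501 (Rb1) and chr10:69321262-69321582 (Cdk1).

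The 60 other cell cycle genes were counted in the same way. Their 228 regions, none shared with the 37 genes, were called at 70.2% and 64.9% in edKO hearts and at 77.2% and 83.8% in WT hearts. WT-only regions were 15 of 161 (9.32%, 95% exact interval 5.31% to 14.9%) at 13 of the genes, against 19.4% genome-wide. Of 126 called in both edKO libraries, 1 was edKO-only (0.794%, against 1.35% genome-wide).

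Marker genes of heart cell types were compared in the same libraries. Of all protein-coding genes, 52.9% and 53.7% had a start peak in edKO hearts and 55.5% and 56.8% in WT hearts, -2.84 points. Of 12 cardiomyocyte markers, 11 and 12 had a start peak in edKO hearts and 11 and 11 in WT hearts. Of 6 fibroblast markers, 3 and 2 had one in edKO hearts and 4 and 5 in WT hearts, and of 4 smooth muscle and pericyte markers 2 and 2 in edKO hearts and 3 and 3 in WT hearts, each with exact permutation p = 0.333. Of 6 endothelial markers 4 and 4 had one in edKO hearts and 3 and 4 in WT hearts, and of 3 epicardial markers 2 in every heart. Of 5 immune markers 0 and 0 had one in edKO hearts and 1 and 1 in WT hearts, and of 5 erythroid markers 1 and 2 in edKO hearts and 1 and 2 in WT hearts. Of the 4 neuronal and Schwann markers 0 had one. Pecam1 and Tek of the endothelial markers, Dcn of the fibroblast markers and Ptprc of the immune markers had a start peak in none of the 4 libraries. The part of cell makeup in the calls at the cell cycle genes was not tested.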

How the data were processed

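ATAC-seq peak lists of 4 newborn mouse hearts (2 edKO, 2 WT) were deposited, 1 for each library, so replicates were called separately. The submitters' processing notes name the tools MACS2, Bowtie2, SAMtools, cutadapt, bcl2fastq and CASAVA, and give GRCm38 (mm10) as the build. Tool versions, any shift of reads for Tn5 and the treatment of duplicates were not given in the sources used here. The authors' lists give for each peak the fold enrichment (a ratio of pileup to local background), the −log10 p, the −log10 q-value and a score, of which the authors' score was not used in any comparison. These values describe a peak within its own list. Sequencing depth is not given per library; the authors' fold and −log10 p were solved for the summit pileup, which came out whole within 0.001 for 99.9858% to 100% of peaks.

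Overlapping peaks (1 bp or more) from the 4 lists were joined, giving 53140 regions, and a library was called in a region that its peaks overlapped. Regions within 20 kb of a member's gene body were taken, and those within 1 kb of an annotated start (from the RefSeq promoter table, or either gene end where it has no entry) counted as start regions. The gene table (GRCm38.p6) has no exons, so exons and introns are not told apart, and nearness to a gene is no evidence of acting on it. The members and lists were chosen with earlier results of these data known. All 37 genes are covered by counts. Values per library are given for D cyclins, CDK inhibitors, genes with WT-only regions or irregular starts and the strongest region of each role, and further starts named were picked as extremes of their group after the values were seen, or for a printed promoter. Groups were compared by two-sided exact permutation tests over the 4 libraries. Single shares have 95% exact intervals, apart from the edKO-only share, which has a bound by the rule of 3. Merging, assignment and the pileup solution were tested on simulated data. Alternatives changed the −log10 p threshold, the list length, the overlap, the distance, the gene assignment, the start definition, the replicate block and each library. Analyses used Python 3.11.15 with pandas 2.3.3 and scipy 1.17.1.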

Additional observations from a re-analysis of the deposited data

How the results depend on the processing

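The lower share of cell cycle regions called in edKO hearts kept its direction in all 14 alternatives, from -21.65 points (−log10 p of at least 10) to -4.04 points (lists of equal length, exact permutation p = 0.667, where the groups overlapped). The replicate block is counted among the 14 but changes only the test, so it could not move this value. Leaving out 1 library at a time gave -17.86 to -14.0 points. The WT-only share was 3.41% with lists of equal length, where all regions had 10.6%, and 18.3% to 20.5% without 1 library (20.2% without edKO 1, 18.3% without edKO 2, 20.5% without WT 1 and 18.3% without WT 2), where fewer libraries are needed for the call and all regions had 24.5% to 35.9%. The edKO-only share was 1.27% to 12.0% without 1 library, the highest without edKO 1, where all regions had 24.1%. The difference between regulators and mitotic and replication genes reversed to 4.57 points with lists of equal length and to 5.83 points at a −log10 p of at least 10, and the cause was not tested. Leaving out 1 library gave -13.4 points (without edKO 1) to -4.74 points (without edKO 2), a distance of 5 kb gave -16.11 points, and peaks covering 50% of the region gave -1.76 points. For gene starts the difference was -16.22 points at a −log10 p of at least 10 and -4.05 points with peaks covering 50% of the region. Leaving out 1 library gave -2.70 points (without edKO 2) to 0.00 points (without edKO 1), and the difference was -2.70 points with both gene ends in place of starts, an alternative chosen after seeing the data. The replicate numbers are only names here. With the replicate block the difference in regions called was -15.13 points by construction, and an exact sign-flip test of 2 pairs cannot go below p = 0.5. Weak regions, with summits of 6 or 7 tags at the least, limit what a missing call shows.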
